A study of Mus musculus with 12 samples.

Results

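The 10 genes of major histocompatibility complex (MHC) class I antigen presentation described here were followed in anterior prostate of APT121 and wild type mice. They were chosen by name. They are the immunoproteasome subunit genes Psmb8, Psmb9 and Psmb10, the peptide transport and loading genes Tap1, Tap2 and Tapbp, the class I light chain gene B2m, the heavy chain genes H2-K1 and H2-D1, and Nlrc5, which encodes a transactivator of class I genes. A value was read for 8 of the 10, out of 19935 genes tested on the array. H2-K1 and H2-D1 have no value of their own, because both of their probe sets (transcript clusters) are annotated to H2-K1, H2-D1 and LOC547349 together.

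The wild type group is 8 arrays from 16 males of a mixed C57BL/6J and DBA/2 F3 cross, and the APT121 group is 4 arrays from 8 males of that background that carry the T121 fragment of SV40 large T antigen and are labelled as having prostatic intraepithelial neoplasia (PIN) lesions. The probasin promoter, active in prostate epithelium, drives T121, which binds and inactivates the pRb family. Both groups ate the AIN93G diet from 3 weeks of age and were killed at 12 weeks, and each array holds RNA of 2 pooled mice, so that p-values measure the spread between pools. Values below are log2 RMA intensities on Affymetrix Mouse Gene 1.0 ST arrays, errors are SD over 4 APT121 or 8 wild type arrays, and differences are APT121 minus wild type ± SE.

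Class I molecules display peptides of the cell's own proteins at the surface to CD8 T cells. The proteasome cuts the peptides, and cells exposed to interferon replace its 3 constitutive catalytic subunits with the immunosubunits that Psmb8, Psmb9 and Psmb10 encode. The TAP transporter, a pair of the Tap1 and Tap2 products, carries peptides into the endoplasmic reticulum, where tapasin (Tapbp) holds empty class I molecules for loading. NLRC5 acts with RFX factors and NF-Y at a conserved promoter module that includes the X2 and Y boxes, and interferon acts on the same promoters through IRF factors.

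The promoter windows of B2m, H2-K1, H2-D1 and Tap1 are printed because they hold the module's letters or, for Tap1, are shared with a second member of the group. RefSeq windows (GRCm38.p6, 250 bases before to 50 after the annotated start) matched 8 of the 10 genes. All are 5′ to 3′ on the strand of the gene. Capitals mark, on either strand, an IRF site (AANNGAAA), the interferon-stimulated response element core that contains it (GAAA, any 2 bases, GAAA), an NF-kB site (GGG, any 2 bases, TT, any base, CC), the X2 core (TGACG) and the Y box (ATTGG).
B2m, chr2:122147437-122147736, plus strand: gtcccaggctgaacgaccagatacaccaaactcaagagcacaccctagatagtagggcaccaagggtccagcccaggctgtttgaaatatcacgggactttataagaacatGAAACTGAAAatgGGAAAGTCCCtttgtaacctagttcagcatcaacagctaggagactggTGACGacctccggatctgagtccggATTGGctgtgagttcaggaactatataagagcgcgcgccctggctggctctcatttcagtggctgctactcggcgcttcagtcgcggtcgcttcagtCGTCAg
H2-K1, chr17:34000298-34000597, minus strand: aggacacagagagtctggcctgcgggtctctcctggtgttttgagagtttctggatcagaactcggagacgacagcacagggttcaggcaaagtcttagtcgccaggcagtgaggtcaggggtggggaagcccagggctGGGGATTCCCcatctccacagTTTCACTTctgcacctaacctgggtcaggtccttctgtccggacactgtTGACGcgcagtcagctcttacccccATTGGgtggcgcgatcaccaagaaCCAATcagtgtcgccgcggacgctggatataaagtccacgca
H2-D1, chr17:35262844-35263143, plus strand: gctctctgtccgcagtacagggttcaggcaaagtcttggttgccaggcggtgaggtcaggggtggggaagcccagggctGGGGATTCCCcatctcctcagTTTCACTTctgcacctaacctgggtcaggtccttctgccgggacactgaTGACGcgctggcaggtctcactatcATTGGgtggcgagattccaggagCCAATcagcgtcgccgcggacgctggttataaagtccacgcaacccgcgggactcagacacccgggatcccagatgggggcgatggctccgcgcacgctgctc
Tap1, chr17:34187306-34187605, plus strand: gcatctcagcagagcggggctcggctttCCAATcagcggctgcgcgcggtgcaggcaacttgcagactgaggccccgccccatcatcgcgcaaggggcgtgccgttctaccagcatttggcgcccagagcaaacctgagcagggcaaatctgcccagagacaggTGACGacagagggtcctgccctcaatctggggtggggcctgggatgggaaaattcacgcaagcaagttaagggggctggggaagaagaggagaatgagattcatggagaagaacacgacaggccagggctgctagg

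In B2m, H2-K1 and H2-D1 the X2 core and the Y box lay in the same order with their starts 25 bases apart. Of all 32851 windows of this length, 20.8% held the X2 core and 37.4% the Y box. The order X2 then Y within 60 bases, with either strand counted for both, was found in 2.58%. The spacing of 25 bases, chosen after the sequences were seen and counted only with both on the printed strand, was found in 19 windows of 16 genes (0.0578%). These shares thus differ in the strand rule as well as in spacing. Of the 13 tested among those 16 genes, B2m, Hspa14 (0.74), Ubn1 (0.38) and Xpnpep1 (0.34) were called higher in APT121 and Ghitm (-0.51) lower. Over all genes tested, 22.8% were called higher and 30.0% lower. The rest of the 13 were not called, among them another H2 class I gene, H2-M3 (0.09 ± 0.08, limma adjusted p = 0.393). The wild type mean of H2-M3, 4.96, lay below that of the median gene (5.38). An IRF site was present in B2m, H2-K1 and H2-D1 (23.9% of all windows), the longer response element core in B2m (3.44%), and an NF-kB site in the same 3 genes (4.79%). Psmb8 held a GAS element (TTCNNNGAA), which 8.3% of windows hold, and Tapbp held the Y box at 2 places. Psmb10 held none of these letters in its window. Psmb9 and Tap1 lie back to back on chromosome 17 with 225 bases between their annotated starts, and their windows share 275 bases, so that the X2 core and Y box printed for Tap1 are also those of Psmb9.

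All 3 immunosubunit genes rose in APT121 prostate, and their constitutive counterparts did not. Psmb8 (chr17:34198195-34201454), whose product takes the place of the chymotrypsin-like subunit, ran from 5.25 over a median of 5.65 to 5.92 in wild type and was at 7.77, 7.82, 8.28 and 7.82 in APT121 arrays 1 to 4. The groups lay 1.85 apart at their closest points, and Psmb8 rose 4.93-fold (2.30 ± 0.12, limma adjusted p = 2.07e-10), a rise exceeded by 1.40% of the genes tested. Psmb9 (chr17:34182030-34187330), the replacement of the caspase-like subunit, ran from 6.95 over 7.08 to 7.33 in wild type and was at 8.23, 8.14, 8.93 and 8.13 in APT121. APT121 array 3 stood above the other 3, and the rise was 2.36-fold (1.24 ± 0.13, adjusted p = 7.14e-07).

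Psmb10 (chr8:105935728-105938392), the replacement of the trypsin-like subunit, is the member of the trio outside the H2 complex, which is the mouse MHC on chromosome 17. It ran from 6.69 over 6.86 to 7.09 in wild type and was at 7.49, 7.38, 7.85 and 7.53 in APT121. Its rise of 1.63-fold (0.71 ± 0.09, adjusted p = 7.98e-06) was smaller than that of Psmb8, with 95% intervals of 0.51 to 0.90 and 2.04 to 2.56 on the log2 scale.

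**Figure D1:**
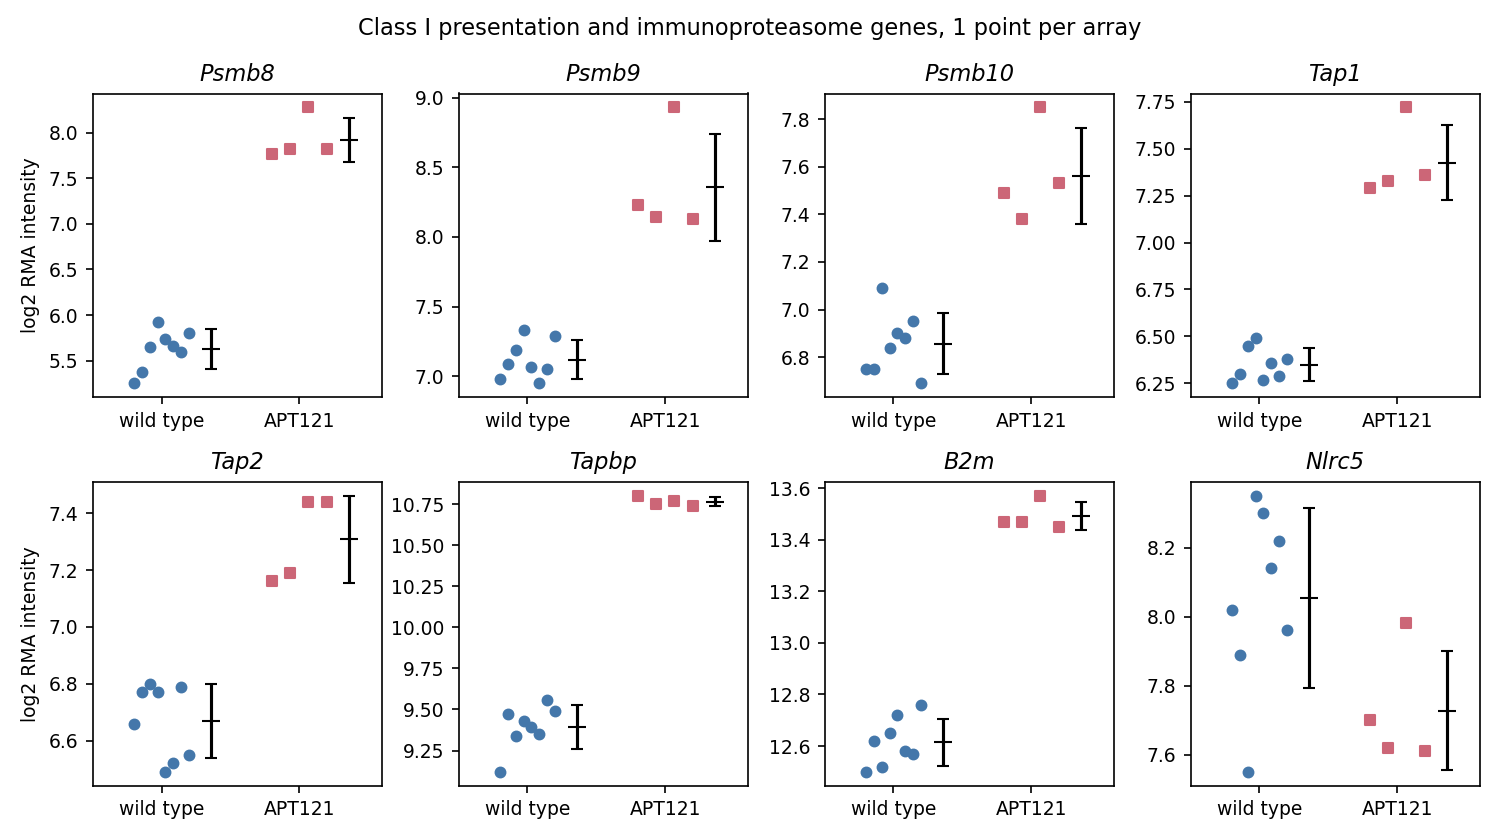
Log2 RMA intensity of the 8 measured genes, 1 point per array (8 wild type, 4 APT121), with the mean ± SD beside each group and a separate vertical scale for each gene. For every gene except Nlrc5 the 4 APT121 arrays lie above all 8 wild type arrays, and array 3 is the highest APT121 array for 6 of the 8.

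None of the constitutive subunit genes was higher. Psmb5, which encodes the chymotrypsin-like subunit, fell from 8.56 ± 0.08 to 8.15 ± 0.14 (-0.41 ± 0.07, adjusted p = 1.45e-04). Psmb6, the caspase-like subunit gene, differed by -0.18 ± 0.11 (adjusted p = 0.189) and Psmb7, the trypsin-like one, by -0.17 ± 0.08 (adjusted p = 0.0984), neither past the threshold of 0.05. With wild type arrays 5 to 8 as the only controls Psmb6 was called lower (-0.36, adjusted p = 0.00319). So was Psmb7 (-0.26, adjusted p = 0.0406), which was also called lower without APT121 array 3 (-0.25, adjusted p = 0.0209), after centring and after repeated quantile normalisation. The log ratio of immunosubunit to counterpart within each array was therefore compared. Only its change can be read, since intensities of different probe sets are not levels on 1 scale.

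Psmb8 over Psmb5 moved from -2.94 ± 0.23 to -0.23 ± 0.14, a 6.55-fold shift (2.71 ± 0.13). Psmb9 over Psmb6 shifted 2.67-fold (1.42 ± 0.19) and Psmb10 over Psmb7 1.84-fold (0.88 ± 0.11). The groups did not overlap for any of the 3 pairs. Each gave p = 0.00202 in a two-sided exact permutation test over the 495 groupings of 12 arrays, the smallest p this design can give, and p = 0.00202 after adjustment over the 3 pairs. Psmb8 and Psmb9 alone lay 1.85 and 0.79 apart between groups. Over all arrays Psmb5 ran only from 8.00 to 8.69 and Psmb6 from 9.17 to 9.76. The outcome for their pairs thus followed from the rises above and is no separate support.

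**Figure D2:**
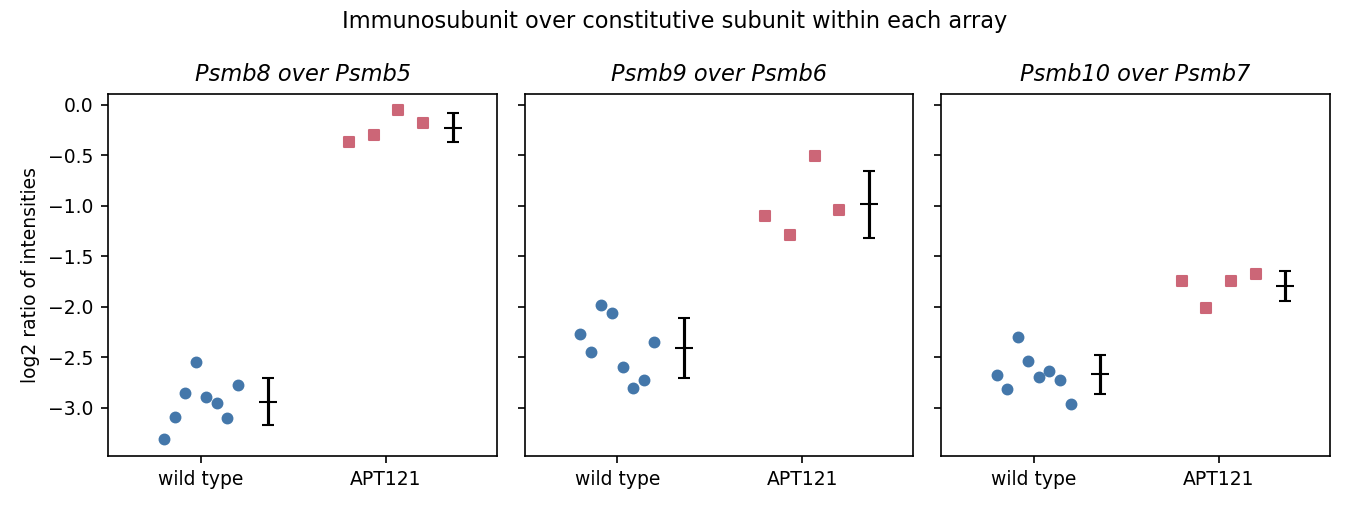
Log2 ratio of each immunosubunit gene to the constitutive gene it replaces, 1 point per array, with mean ± SD (8 wild type, 4 APT121). The APT121 arrays lie between -0.37 and -0.05 for Psmb8 over Psmb5, where wild type arrays lie between -3.31 and -2.55, and the groups are also apart in the other panels.

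Both transporter genes and the tapasin gene rose as well, in unequal measure. Tapbp (chr17:33919478-33929290) ran from 9.12 over 9.41 to 9.56 in wild type and was at 10.80, 10.75, 10.77 and 10.74 in APT121. The 4 APT121 pools were close to each other (SD 0.03), and the rise was 2.59-fold (1.37 ± 0.07, adjusted p = 2.77e-10). Tap1 (chr17:34187556-34197225) ran from 6.25 over 6.33 to 6.49 in wild type and was at 7.29, 7.33, 7.72 and 7.36 in APT121, with no overlap. It rose 2.11-fold (1.08 ± 0.08, adjusted p = 1.63e-08). Tap2 (chr17:34204479-34216321), the other subunit gene of the transporter, ran from 6.49 over 6.71 to 6.80 in wild type and was at 7.16, 7.19, 7.44 and 7.44 in APT121. It rose 1.55-fold (0.64 ± 0.08, adjusted p = 1.01e-05), and its 95% interval of 0.46 to 0.82 ended below that of Tap1, 0.90 to 1.25.

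B2m (chr2:122147687-122153082), the light chain of every class I molecule, was bright in both genotypes, with a wild type mean above that of 99.9% of genes. It ran from 12.50 over 12.60 to 12.76 in wild type and was at 13.47, 13.47, 13.57 and 13.45 in APT121. The groups were apart, and B2m rose 1.83-fold (0.87 ± 0.06, adjusted p = 1.09e-08).

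The heavy chain genes H2-K1 and H2-D1 could only be read together. Of the 2 clusters annotated to both and to LOC547349, cluster 10444780 was at 11.25, 11.07, 11.62 and 11.41 in APT121 against 9.35 to 9.76 in wild type, and rose 3.37-fold (1.75 ± 0.10, adjusted p = 1.61e-09 in a limma fit over all 28815 clusters). Cluster 10450075 was at 11.73, 11.33, 12.25 and 11.95 against 8.61 to 10.15, and rose 4.58-fold (2.20 ± 0.24, adjusted p = 2.41e-06). The wild type spread of the second was wide (SD 0.51, against 0.15 for the first), and neither can be given to 1 gene.

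The differences are read against a large background. In the fit over genes 52.8% passed the threshold, 22.8% higher and 30.0% lower in APT121. Of the 8 measured genes 7 were called higher and 1, Nlrc5, lower, and their median difference was 0.97 where that of all genes was -0.09. The groups were fully apart, with APT121 higher, for 7 of the 8 and for 17.7% of all genes. In the fit over clusters 47.3% passed, 20.0% higher.

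**Figure D3:**
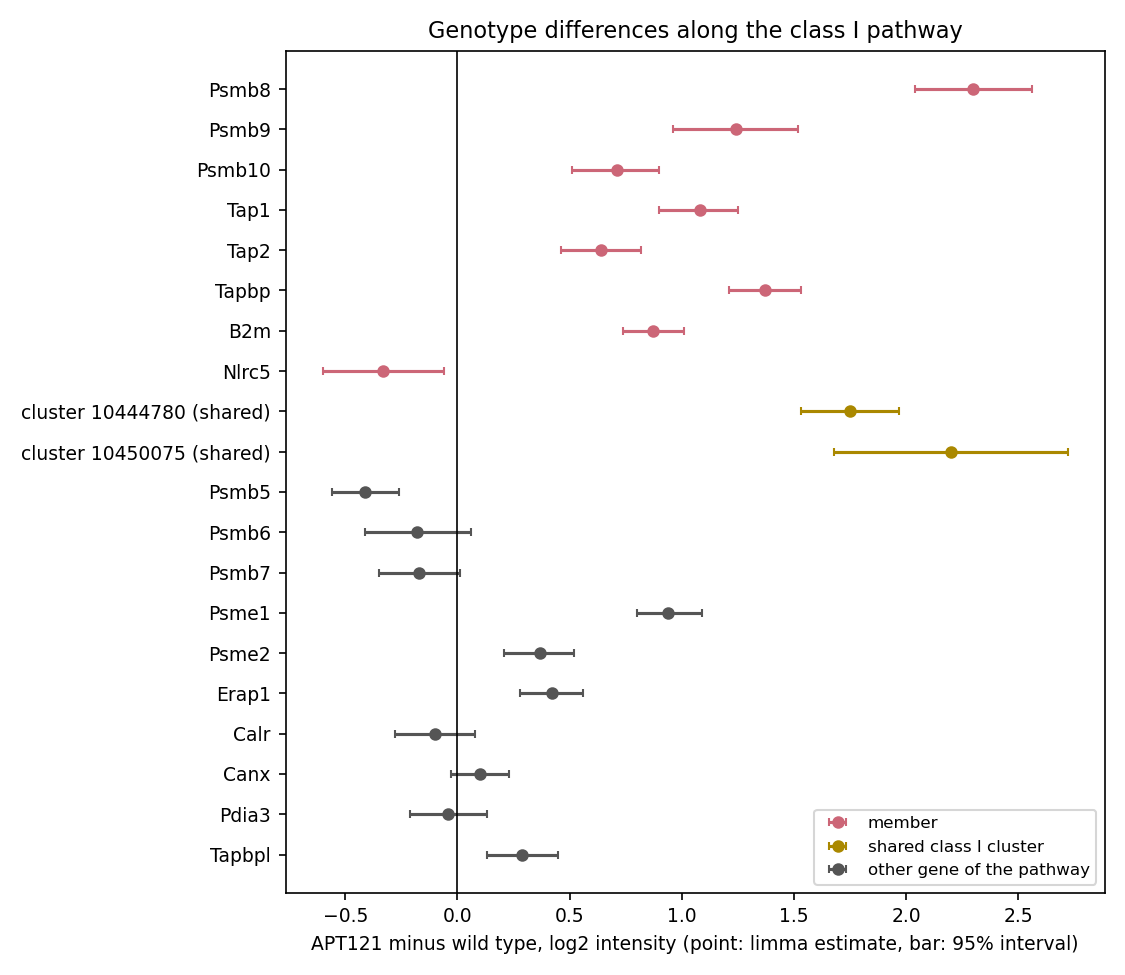
Difference between APT121 and wild type (log2, limma estimate with 95% interval) for the 8 measured genes, the 2 clusters shared by H2-K1 and H2-D1, and 10 other genes of peptide cutting and loading. The 7 called higher lie between 0.64 and 2.30, the shared clusters at 1.75 and 2.20, and Calr, Canx and Pdia3 near 0.

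Nlrc5 (chr8:94434335-94527272) has 19 single-gene clusters on the array, and they did not go one way. The brightest, 10574100, ran from 7.55 over 8.08 to 8.35 in wild type and was at 7.70, 7.62, 7.98 and 7.61 in APT121. The groups overlapped, and the difference of -0.33 ± 0.13 passed narrowly (adjusted p = 0.0416) but not in the exact permutation test (two-sided p = 0.0606). It turned to 0.39 when the clusters of the gene were averaged (adjusted p = 8.12e-04), and leaving out any 1 of wild type arrays 1, 4, 5, 6 and 7 or APT121 arrays 1, 2 and 4 ended the call (adjusted p = 0.0509 to 0.113).

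Taken one by one, 11 of the 19 clusters were higher in APT121, 2 lower and 6 not past the threshold (20.0% and 27.2% of all clusters were higher and lower). The median of their differences was 0.28. Cluster 10574149 rose most, from 4.76 ± 0.24 to 6.00 ± 0.29 (1.23 ± 0.14, adjusted p = 2.57e-06), and cluster 10574153 fell from 6.40 ± 0.12 to 5.99 ± 0.28 (-0.42 ± 0.10, adjusted p = 0.00366). The 2 that fell are the 2 brightest, while 14 of the 19 had a wild type mean below that of the median gene (5.38). No detection call is used here, so whether such dim clusters exceeded background was not tested. The direction of Nlrc5 thus depends on which probe sets are read.

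**Figure D4:**
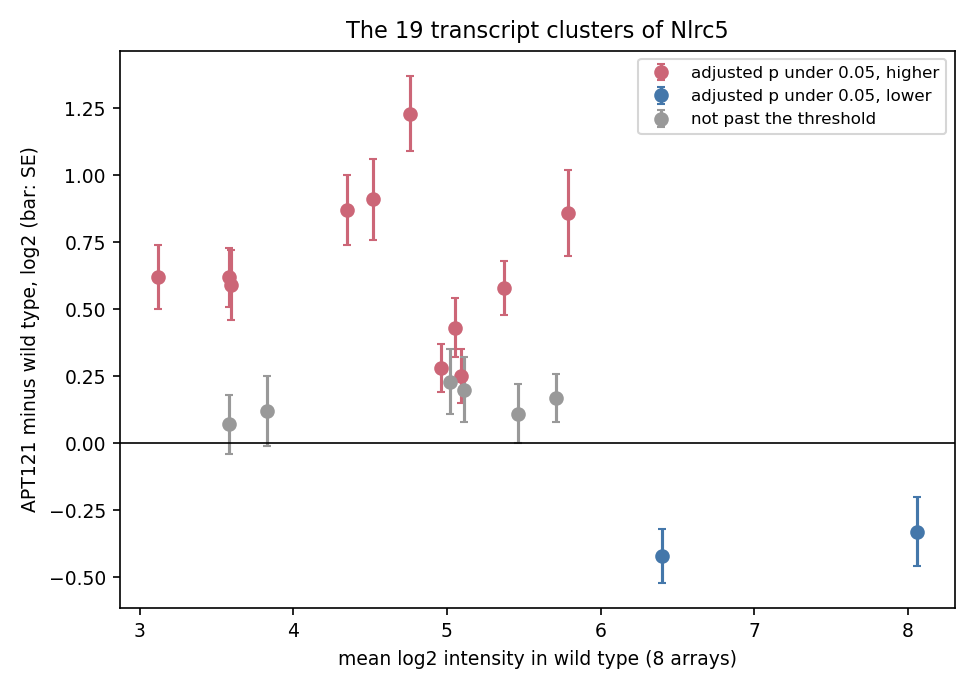
Each of the 19 Nlrc5 clusters by its mean log2 intensity in wild type (horizontal axis) and its difference between genotypes on the log2 scale (vertical axis, bars are SE). Clusters past an adjusted p of 0.05 are coloured: 11 lie above 0, at wild type means up to 5.79, and the 2 brightest lie below 0.

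Other genes around the same steps changed in both directions. The counts of this and the following lists stand beside 22.8% of all genes higher and 30.0% lower. Of 13 genes of peptide trimming and proteasome partners 7 rose and 3 fell, with a median of 0.18, and 6 fell with wild type arrays 5 to 8 as the only controls. The proteasome activator subunit gene Psme1 rose from 9.13 ± 0.09 to 10.07 ± 0.11 (0.94 ± 0.07, adjusted p = 9.44e-09). Its partner Psme2 rose by 0.37 ± 0.07 (adjusted p = 5.35e-04), and Erap1, the aminopeptidase that trims peptides in the endoplasmic reticulum, by 0.42 ± 0.07 (adjusted p = 7.12e-05). The cytosolic aminopeptidase gene Npepps rose by 0.88 ± 0.08, while Lap3, the leucine aminopeptidase gene, fell by 1.43 on the log2 scale (adjusted p = 3.53e-11).

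Of 9 genes of loading and quality control in the endoplasmic reticulum 3 rose and 3 fell (median -0.04). The chaperones that join tapasin in the loading complex did not pass the threshold. Calr differed by -0.10 ± 0.09 (adjusted p = 0.343), Canx by 0.10 ± 0.06 (adjusted p = 0.182) and Pdia3 by -0.04 ± 0.08 (adjusted p = 0.656). Tapbpl, which encodes the tapasin relative TAPBPR, rose by 0.29 ± 0.08 (adjusted p = 0.00504) and not after repeated quantile normalisation (0.12, adjusted p = 0.215). Uggt1, a glycoprotein folding sensor that also checks class I molecules, rose by 0.59 ± 0.06, and the translocon gene Sec61b and the chaperone gene Hspa5 differed by -1.10 ± 0.07 and -0.52 ± 0.09.

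Among 8 measured of 16 other H2 class I heavy chain genes 5 rose and none fell, with a median of 0.29. H2-Q4 rose from 6.46 ± 0.15 to 8.10 ± 0.18 (1.65 ± 0.09, adjusted p = 3.84e-10). H2-Bl rose by 0.36 ± 0.08 from 3.74, and H2-Q2 by 0.39 ± 0.12 (adjusted p = 0.0150), a call lost when APT121 array 3 was left out (0.28, adjusted p = 0.074), after repeated quantile normalisation (0.161) and with wild type arrays 5 to 8 as the only controls (0.109). With array 3 left out 3 of the 8 were called higher, and with those controls 2. Among clusters shared by several of these genes, that of H2-Q6 and H2-Q8 rose by 1.82 ± 0.16 from 6.49, and that of H2-T23 and H2-T-ps by 1.37 ± 0.08 from 6.85. Sequences of these genes are much alike, so their probe sets may share transcripts. Class I-like genes outside the complex went the other way, with 5 of 6 lower and none higher (median -0.42), and 3 lower after repeated quantile normalisation. Mr1, which presents vitamin metabolites, fell from 9.38 ± 0.08 to 8.34 ± 0.09 (-1.03 ± 0.06, adjusted p = 1.59e-09). Hfe, a regulator of iron uptake, and Azgp1, a soluble class I relative, fell by 0.49 and 1.13. The difference of Azgp1 was -1.72 with wild type arrays 1 to 4, at 9.62 to 10.29, as the only controls or with the replicate block, and -0.54 with arrays 5 to 8, at 8.70 to 8.82.

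Neighbours in the H2 complex with no part in presentation were read beside them. Of 10, 4 rose and none fell (median 0.11), though 3 fell after repeated quantile normalisation, with Ddx39b at 0.58 ± 0.08, Brd2 at 0.45 ± 0.07 and Bag6 at 0.33 ± 0.06. The interval of Ddx39b, 0.41 to 0.76, overlapped that of Tap2, and a shift shared by the region was not tested.

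Of 16 transcription regulators 9 rose and 2 fell (median 0.28). Irf1, an interferon-induced activator of class I and immunoproteasome genes, rose from 6.76 ± 0.09 to 7.67 ± 0.07 (0.92 ± 0.07, adjusted p = 7.57e-09), and by 0.44 when its clusters were averaged (adjusted p = 1.39e-05). Irf2 rose by 0.84 ± 0.08 and the NF-kB subunit gene Relb by 0.64 ± 0.09. Rfx5, part of the RFX complex at the X box, differed by 0.10 ± 0.07 (adjusted p = 0.269). Of 11 genes of interferons and their receptors 6 rose and 2 fell (median 0.17), and 3 and 1 after repeated quantile normalisation or with the replicate block. The signalling kinase gene Jak2 rose by 1.64 ± 0.11 (adjusted p = 5.98e-09) and Il10rb, a receptor chain shared by type III interferons, by 1.07 ± 0.09, while the interferon gamma receptor chain gene Ifngr1 fell by 0.47. Of the interferon genes, Ifng and Ifnb1 were in the list, and their wild type means lay below that of the median gene (5.38). Ifng was at 3.64 ± 0.17 in APT121 and 3.68 ± 0.16 in wild type (adjusted p = 0.688), and Ifnb1 at 2.96 ± 0.13 and 3.26 ± 0.17 (-0.30 ± 0.09, adjusted p = 0.0147), a call that repeated quantile normalisation (adjusted p = 0.0851), the replicate block (0.107), the use of wild type arrays 1 to 4 (0.0808) and the removal of APT121 array 2 (0.0547) each ended. Of the NKG2D ligand genes, surface signals read by NK cells, 2 of 9 were measured, with differences of -0.07 and -0.10 that did not pass.

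MHC class II presentation is the pathway of dendritic cells, macrophages and B cells. Of 11 measured genes 2 rose and 1 fell (median 0.05), where 22.8% of all genes rose and 30.0% fell. With APT121 array 2 left out 5 rose, and after repeated quantile normalisation 1 did. H2-Ab1 was at 7.82, 7.32, 8.82 and 7.43 in APT121 and at 7.07 to 7.80 in wild type, so that array 3 stood apart and the difference of 0.42 ± 0.22 did not pass (adjusted p = 0.116). Cd74, the class II invariant chain gene, was 0.43 ± 0.14 higher (adjusted p = 0.0191) and 0.20 higher without array 3 (adjusted p = 0.0491), and did not pass after repeated quantile normalisation, with the replicate block, or with fewer wild type arrays (0.0654 to 0.171). The cathepsin gene Ctss, which trims the invariant chain, rose by 1.91 ± 0.10 (adjusted p = 1.86e-10), and Ciita, the class II relative of Nlrc5, differed by -0.21 ± 0.07 (adjusted p = 0.0203), a call lost in the same settings (0.0546 to 0.188) and on removal of APT121 array 2 (0.0884) or 4 (0.0644).

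APT121 array 3 was the highest of its group for Psmb8, Psmb9, Psmb10, Tap1, B2m and the main Nlrc5 cluster, array 1 for Tapbp and array 4 for Tap2. Without array 3 all 7 rises passed the threshold, with Psmb8 at 2.18, Psmb9 at 1.05, Psmb10 at 0.61, Tap1 at 0.98, Tap2 at 0.59, Tapbp at 1.37 and B2m at 0.85. The shared heavy chain clusters were then 1.65 and 2.05 higher.

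Most markers of myeloid cells were also higher in APT121. Of 9 measured 8 rose and none fell, and their summed intensity was 571 to 709 in wild type and 743 to 1549 in APT121. Among APT121 arrays it was highest in array 3, as were the smooth muscle, fibroblast, luminal and basal sums. Ptprc, the CD45 gene of all leukocytes, rose by 0.70 and Laptm5 by 1.27. T and NK cell markers rose for 3 of 11, where 22.8% of all genes rose, and the other 8 did not pass. Cd3g rose by 1.59, Gzmb by 0.50 and Cd3e by 0.24, while Cd3d differed by -0.03 and Cd8a by 0.02. Their summed intensity was 178 to 205 in wild type and 209 to 236 in APT121. Cd3g, with the largest rise of the list, is part of that sum, so it is no measure of the other markers. Dendritic cell markers rose for 2 of 5. Of 4 B cell markers none rose and 1 fell. The part of these cells in the rises was not tested. In APT121 array 4, with the lowest myeloid sum of its group, the 9 markers were divided. Lyz2 was at 7.02, below every wild type array. Ptprc at 5.73, Laptm5 at 7.62, Adgre1 at 5.64 and Fcer1g at 6.46 were above every wild type array. Cd68 at 5.92, Csf1r at 6.55, Tyrobp at 5.53 and Itgam at 4.62 lay within the wild type range. The myeloid sums of APT121 arrays 1 to 4 were 1124, 1144, 1549 and 743. In the same order, the 8 measured class I genes deviated from their APT121 means by -0.08, -0.11, 0.25 and -0.06 on average.

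**Figure D5:**
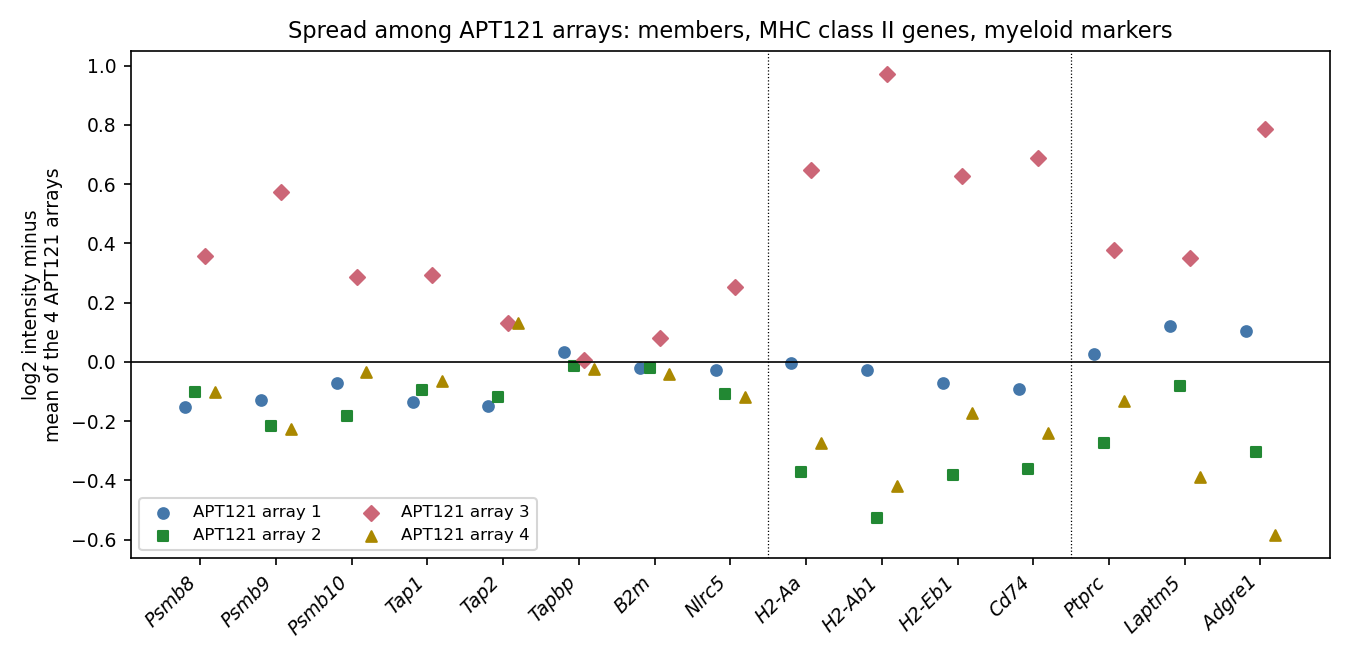
Log2 intensity of each APT121 array minus the mean of the 4, for the 8 measured genes, 4 MHC class II genes and 3 myeloid markers (dotted lines part the 3 sets). Array 3 is the highest for the class II genes and these myeloid markers and for 6 of the 8 genes, while for Tapbp the 4 arrays nearly coincide.

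The other tissue markers moved too. All 5 smooth muscle, 5 fibroblast and 3 basal epithelial markers and 4 of 5 endothelial ones fell. Luminal markers were read in both groups, with wild type means from 9.83 for Hoxb13 to 13.91 for Tgm4. The APT121 means ran from 9.26 for Hoxb13 to 11.55 for Krt8. Of 5 luminal markers 1 rose and 3 fell. Krt8 rose by 1.00 and Krt18 differed by -0.04, while Pbsn (-3.27), Tgm4 (-2.74) and Hoxb13 (-0.57) were lower. The luminal summed intensity was 26946 to 29308 in wild type and 8140 to 13167 in APT121. Seminal vesicle transcripts were higher in APT121 for 2 of 5 (Svs2 by 6.17, adjusted p = 6.95e-04, and Svs5 by 5.10, adjusted p = 0.00145). Their summed intensity was 67 to 158 in 7 wild type arrays, 13483 in wild type array 6, and 1412, 14988, 9536 and 11771 in APT121 arrays 1 to 4. Svs4 (1.94), Svs6 (-0.46) and Svs3a (-0.48) did not pass. Svs6 and Svs3a were at 5.86 and 6.45 in wild type array 6, and reached only 3.26 and 2.89 in APT121. All 4 measured adipose markers fell. The part of these tissues in the differences was not tested. In whole tissue a larger share of a cell type and more RNA per cell cannot be told apart.

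Within groups the genes varied together in part. After the group mean was subtracted, Psmb9 and Tap1, the back-to-back pair, correlated at r = 0.90 over 12 arrays. This r was 0.78 without APT121 array 3 and 0.75 over the 8 wild type arrays alone. High values were not particular to that pair. In the same order, Psmb8 correlated with Tap1 at 0.80, 0.71 and 0.69, and with Psmb9 at 0.77, 0.67 and 0.68. Tap2, which lies beside Psmb8, correlated with Psmb8 at 0.10 and with Tap1 at 0.48 over 12 arrays. These values are descriptions over few arrays that share their hybridisation and scaling. The genes outside the group whose deviations were most like the mean of the 8 were Myocos (r = 0.94), Mir7-2 (0.92), Sema3a (0.91), Mir181d (0.89), Spata25 (0.88) and Wfdc3 (0.88). None of these 6 rose between genotypes. Sema3a (-0.23, limma adjusted p = 0.0237) and Wfdc3 (-0.28, limma adjusted p = 0.033) were called lower. All 6 were highest in APT121 array 3 among the APT121 arrays. The mean deviation of the 8 is itself highest in that array (0.25), so this follows largely from how the 6 were picked. Their r values are the highest over all other genes tested and are no test of a relation. Of the 6, all but Mir181d had a wild type mean below that of the median gene (5.38).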

How the data were processed

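Total RNA of anterior prostate, pooled from 2 mice per array, was hybridised to 12 Affymetrix Mouse Gene 1.0 ST arrays. For every transcript cluster the deposited values are linear intensities from RMA, per the submitters' processing notes. Neither software nor version is named in the labels. Since RMA makes the arrays' distributions alike, it hides any global shift in RNA content. Array medians lay between 32.1 and 33.7, with 0 missing values. Depth does not apply to arrays, and their number sets the precision.

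Log2 was taken of the intensities the authors deposited. The platform annotation gave 1 symbol to 21780 of 28815 clusters, several to 1605 and none to 5430, and 21689 gene IDs were found in the RefSeq table. Each gene was read from its brightest cluster by mean log2 intensity, which left 19935 genes with no filter on low values. limma 3.58.1 (R 4.3.3) fitted genotype alone to the 12 arrays, with eBayes, two-sided tests and Benjamini-Hochberg adjustment over all genes at a threshold of 0.05. SAM, named in the submitters' design text, was not run. Single values were also compared by exact permutation over arrays (Python 3.11.15, scipy 1.17.1). The fit was checked on simulated data.

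The genes and lists were chosen with earlier results of these data known. Besides the 10 genes, the text names up to 3 called genes with the largest difference in each pathway list, a set always named (Psmb5, Psmb6, Psmb7, Psme1, Psme2, Erap1, Calr, Canx, Pdia3, Tapbpl, Irf1, Rfx5, Ciita, Cd74, H2-Ea, Ifng and Ifnb1) and the 6 genes most like the mean of the group. A further gene of that set is not reported here. The older symbol H2-Ea stands for H2-Ea-ps. H2-Ab1, H2-M3, the markers and single clusters were named after their values were seen, and the promoter motifs after the sequences were seen. Gene coordinates are those of RefSeq on GRCm38.p6, since no build is named for the array values.

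Alternatives were median centring, repeated quantile normalisation, leaving out the lower-expressed 50% of genes, trend and robust options of eBayes, averaging the clusters of each gene, a replicate block, only wild type arrays 1 to 4, only 5 to 8, wild type without arrays 5, 6 and 7, and leaving out each array. A fit over all clusters was added after seeing the data.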

Additional observations from a re-analysis of the deposited data

Results flagged for a closer look

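In APT121, array 3 lay far from the other 3 arrays by Dixon's criterion for 4 of the genes. Psmb8 was at 8.28 there and at 7.77 to 7.82 in the others. Psmb9 was at 8.93 against 8.13 to 8.23, Tap1 at 7.72 against 7.29 to 7.36, and B2m at 13.57 against 13.45 to 13.47. The myeloid marker sum was also highest in that array, at 1549. This was not particular to myeloid cells. Among APT121 arrays the smooth muscle (8240), fibroblast (2443), luminal (13167) and basal (309) sums were highest there too. The endothelial and seminal vesicle sums were highest in array 2. In wild type, Hfe was at 7.20 in array 7 and at 6.68 to 6.89 in the other 7 arrays. These are 5 of 100 groups of values examined (5.0%), and chance alone flags about 5% of independent groups. The groups here share the same 12 arrays, and 4 of the 5 flags fell in APT121 array 3. That rate therefore cannot decide whether array 3 departs beyond chance, which was not tested.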

How the results depend on the processing

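The rises of Psmb8, Psmb9, Psmb10, Tap1, Tap2, Tapbp and B2m kept their direction and passed in all 21 alternatives each. The differences ran from 2.17 to 2.38 for Psmb8, 1.05 to 1.32 for Psmb9, 0.53 to 0.77 for Psmb10, 0.91 to 1.12 for Tap1, 0.47 to 0.72 for Tap2, 1.30 to 1.42 for Tapbp and 0.82 to 0.91 for B2m. The shifts of the subunit ratios also kept their calls, from 2.65 to 2.77, 1.20 to 1.63 and 0.79 to 0.96. Nlrc5 turned to 0.39 with the mean of its clusters. Its call was lost at -0.23 under the replicate block, against wild type arrays 1 to 4 alone and without wild type arrays 5, 6 and 7, and in the exact permutation test (-0.33). Leaving out 1 array gave -0.41 to -0.28. Of the measured genes 0 were then lower in each of these fits that lost the call, and from 0 to 1 with 1 array left out. The cause was not tested. Over all genes 5987 were lower and 4540 higher, and without the lower-expressed 50% of genes, where fewer are tested, 3326 were lower and 3770 higher. Median centring gave 7824 lower and 4103 higher. Over all pathway lists 36 of 86 measured genes were higher and 16 lower, and after repeated quantile normalisation 24 and 17.

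Differences near 0 changed sign as follows. Psmb6 was at 0.01 under the replicate block and against wild type arrays 1 to 4 alone, and Pdia3 at 0.02 there and without APT121 array 4. After quantile normalisation Rfx5 was at -0.04 and Ifng at 0.06. Leaving out 1 array gave -0.10 to 0.02 for Pdia3, -0.12 to 0.02 for Ifng and -0.16 to 0.02 for H2-Ea, with 0.00 without APT121 array 3.

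The labels do not say that replicate numbers pair the samples. Arrays of the same number correlated in their deviations at 0.07, 0.06, 0.06 and -0.03, and 1 of 4 APT121 arrays correlated best with its own number. With replicate number as a block 8814 genes passed in place of 10527. Wild type arrays 5 to 8 have no partner in that fit, and wild type arrays 1 to 4 as the only controls, without the block, gave 8899.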

Other observations

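H2-Ea, the class II alpha chain gene that C57BL/6 mice do not transcribe and DBA/2 mice do, differs between the H2 haplotypes of the strains crossed here. It was at 7.29, 7.56, 7.08 and 7.14 in APT121 and ran from 6.73 over a median of 7.41 to 7.89 in wild type, so that the genotypes overlapped (-0.06 ± 0.18, limma adjusted p = 0.790).

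Over the 8 wild type arrays, cluster 10450075, shared by H2-K1 and H2-D1, was lower where H2-Ea was higher (Pearson's r = -0.87, exact permutation p = 0.00481, Spearman's rho = -0.86, exact permutation p = 0.0107). Array 6, with the highest H2-Ea value, had the lowest value of that cluster (8.61), and array 7, with the lowest H2-Ea value, had the highest (10.15). Array 6 also stood apart from the other wild type arrays in seminal vesicle transcripts, with a summed intensity of 13483 against 67 to 158. Without arrays 6 and 7 r was -0.75. The other shared cluster, 10444780, gave r = -0.79 and rho = -0.71 (exact permutation p = 0.0232 and 0.0576). Among the 10 relations with H2-Ea computed, the adjusted p was 0.0481 for r and 0.107 for rho with cluster 10450075, and 0.116 and 0.288 with cluster 10444780. The other 8 genes gave r from -0.27 to 0.48 with adjusted p for r of 0.763 or more. The relation was looked for after the values were seen.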
